A study of Homo sapiens with 9 samples.

Results

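The clustered protocadherin genes lie side by side on the long arm of human chromosome 5 as 3 clusters, PCDHA, PCDHB and PCDHG. All accessible regions on chromosome 5 with a centre between 140.75 and 141.55 Mb (GRCh38) were taken by position: 50 of the 148797 regions in the table. The stretch itself was chosen with earlier results of these data known. Of these, 18 lay in PCDHA (140786140 to 141012347, 15 protein-coding genes), 15 in PCDHB (141051374 to 141249365, 16 genes) and 10 in PCDHG (141330514 to 141512975, 22 genes). The other 7 lay before PCDHA (1), between PCDHA and PCDHB (2), between PCDHB and PCDHG (2) and after PCDHG (2). The assay was ATAC-seq: the transposase Tn5 cuts and tags open chromatin, and the tagged DNA is sequenced. The cells were the human neuroblastoma line SK-N-BE(2)c. All of them had been transfected with 100 nM of an antisense oligonucleotide using lipofectamine 2000 and were harvested after 48 h. The oligonucleotides were ASO2 or ASO10, both against the long non-coding RNA NESPR, or the negative control NCA, with 3 libraries each. Every group is the same transfected cell line; there was no untransfected group, and the assay does not measure the NESPR RNA itself.

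Clustered protocadherins are cell-surface adhesion proteins by which a neuron tells its own branches from those of other neurons. Each variable exon has its own promoter, and a cell uses only some of them; in PCDHA and PCDHG the chosen exon is spliced to constant exons shared by the cluster, while each PCDHB gene is a single exon of its own. The choice is known to depend on the factor CTCF and the cohesin complex, which bring a promoter and distant enhancers together, and on DNA methylation of the promoters. The last variable exons of PCDHA and PCDHG, the C-type genes, are used more evenly across neurons than the others. Methylation of PCDHB genes is a known mark of one class of neuroblastoma.

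Total counts ran from 7293565 to 10948569 per library, and the 50 regions held 0.0293 to 0.0356% of them. Counts were scaled to a common library total with TMM factors and are given as CPM, and 42 of the 50 regions passed the filter on low counts; the other 8 held 0 to 22 counts per library. Of the defining genes of adrenergic neuroblastoma, 9 of 10 had a region within 1000 bases of a start (not TH), as had 4 of 4 neuron genes, 6 of 7 mesenchymal or fibroblast genes (not PRRX1), 1 of 4 blood genes (SPI1) and 1 of 3 epithelial genes (KRT8). At the edges of the chosen stretch, the first region inside held 1.31 CPM in NCA and the one just outside 14.8, while the last one inside held 20.7 and the one after it 13.8. In such bulk libraries, fewer cells with an open region and less opening in each cell cannot be told apart.

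Many clustered protocadherin promoters carry a conserved element around the letters CGCT just before the start. These letters are shown here because the bases around them differ by cluster. A match to the letters alone does not show that the element is present, at the C-type starts or elsewhere. Of the 53 genes, 47 were found in a RefSeq promoter table (GRCh38.p14). The letters CGCT stood within the 100 bases before the start, on the gene's strand, in 44 of these 47, against 28.1% of 35116 promoters of all genes. The 3 genes without it were PCDHA9, PCDHB8 and PCDHGB2. These are the 100 bases before 13 starts, plus strand, 5′ to 3′, with CGCT in capitals. The first 3 are not of the C type, and the last of them, PCDHA1, had no accessible region.
PCDHA2, chr5:140794752-140794851: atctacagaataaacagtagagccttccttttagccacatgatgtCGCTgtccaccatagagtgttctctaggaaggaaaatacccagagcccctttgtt
PCDHA8, chr5:140841087-140841186: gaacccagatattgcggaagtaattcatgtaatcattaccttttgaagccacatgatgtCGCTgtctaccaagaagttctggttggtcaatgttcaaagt
PCDHA1, chr5:140786040-140786139: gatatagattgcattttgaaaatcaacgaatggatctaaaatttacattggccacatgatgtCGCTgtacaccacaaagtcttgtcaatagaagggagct
PCDHAC1, chr5:140926199-140926298: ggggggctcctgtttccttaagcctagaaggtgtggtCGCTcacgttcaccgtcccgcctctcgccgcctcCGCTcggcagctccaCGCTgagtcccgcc
PCDHAC2, chr5:140966376-140966475: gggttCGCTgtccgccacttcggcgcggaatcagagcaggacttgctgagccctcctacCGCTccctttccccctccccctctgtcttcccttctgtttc
In PCDHB the letters sit in another frame of bases, shown by the open starts of PCDHB2 and PCDHB16 and by PCDHB5, which had no region.
PCDHB2, chr5:141094515-141094614: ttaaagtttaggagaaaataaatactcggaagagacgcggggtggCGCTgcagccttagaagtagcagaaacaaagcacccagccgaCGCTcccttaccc
PCDHB16, chr5:141182287-141182386: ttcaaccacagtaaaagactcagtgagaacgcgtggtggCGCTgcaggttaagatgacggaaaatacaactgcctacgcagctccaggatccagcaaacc
PCDHB5, chr5:141135106-141135205: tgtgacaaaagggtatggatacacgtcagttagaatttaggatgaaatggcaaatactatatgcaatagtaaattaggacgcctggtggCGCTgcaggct
PCDHG is shown by the open starts of PCDHGA1 and PCDHGB1, by PCDHGA2, which had no region, and by the C-type genes PCDHGC3 and PCDHGC4.
PCDHGA1, chr5:141330414-141330513: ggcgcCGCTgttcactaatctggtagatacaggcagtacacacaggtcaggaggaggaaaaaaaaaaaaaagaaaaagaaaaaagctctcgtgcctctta
PCDHGB1, chr5:141349999-141350098: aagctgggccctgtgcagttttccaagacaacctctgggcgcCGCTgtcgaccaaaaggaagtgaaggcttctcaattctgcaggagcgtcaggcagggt
PCDHGA2, chr5:141338660-141338759: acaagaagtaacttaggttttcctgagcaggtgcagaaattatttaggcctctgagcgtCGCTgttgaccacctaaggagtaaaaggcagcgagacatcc
PCDHGC3, chr5:141475866-141475965: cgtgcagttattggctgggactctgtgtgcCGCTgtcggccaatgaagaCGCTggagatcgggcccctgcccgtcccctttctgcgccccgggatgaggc
PCDHGC4, chr5:141484930-141485029: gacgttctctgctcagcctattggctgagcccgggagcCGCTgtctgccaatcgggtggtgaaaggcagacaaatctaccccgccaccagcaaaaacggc

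The bases around CGCT followed the cluster. TGTCGCT stood on the gene's strand in 10 of 13 PCDHA promoters, 1 of 14 in PCDHB and 3 of 20 in PCDHG, against 0.302% of all promoters. GGCGCTG stood in 11 of 14 PCDHB promoters and in no PCDHA or PCDHG promoter on that strand, against 2.45% of all. GCCGCTG stood in 12 of 20 PCDHG promoters and in none of the other clusters, against 1.92% of all. On either strand, 1 PCDHG promoter also held GGCGCTG, and the shares of all promoters were 0.504%, 4.17% and 3.75%. Each of these contains CGCT, so the counts overlap with those of the shorter word. All were searched after the sequences had been read, and a match is a description of letters, not of binding. The core of the general CTCF motif was found on either strand in 1 of the 47 whole promoter entries (PCDHB9), against 4.64% of all promoters. Only exact matches to that core were counted, so a promoter without one is not shown to lack CTCF binding. The promoters compared also differ in GC content. The median was 37.3% for open promoters not of the C type, 39.7% for those without a region and 58.7% for all promoters. The effect of GC content on the share was not tested.

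Most starts held CGCT whether or not they had a region: 14 of 15 starts with an accessible region held it, and 30 of 32 without. A region overlapped the window from 250 bases before to 50 after the start for 6 of 15 PCDHA genes, 6 of 16 PCDHB genes and 4 of 22 PCDHG genes. Together 16 of 53 starts (30.2%) had one, against 68.8% of 15842 protein-coding genes. In PCDHA these were PCDHA2, PCDHA8, PCDHA10, PCDHA11 and the C-type PCDHAC1 and PCDHAC2. In PCDHB they were PCDHB2, PCDHB4, PCDHB6, PCDHB8, PCDHB14 and PCDHB16. In PCDHG they were PCDHGA1, PCDHGB1 and the C-type PCDHGC3 and PCDHGC4, while PCDHGC5 had none. The 4 open C-type promoters had a median GC content of 62.25% (59 to 66) and a median of 20.75 CpG pairs over 300 bases. The 11 other open promoters had a median of 37.3% GC and 8 CpG, and the 32 without a region 39.7% and 6; the median over all promoters was 58.7% and 14. The variable exons resemble each other, and how the authors assigned reads that match several of them is not given in the sources used here, so the split between neighbours is uncertain.

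**Figure D1:**
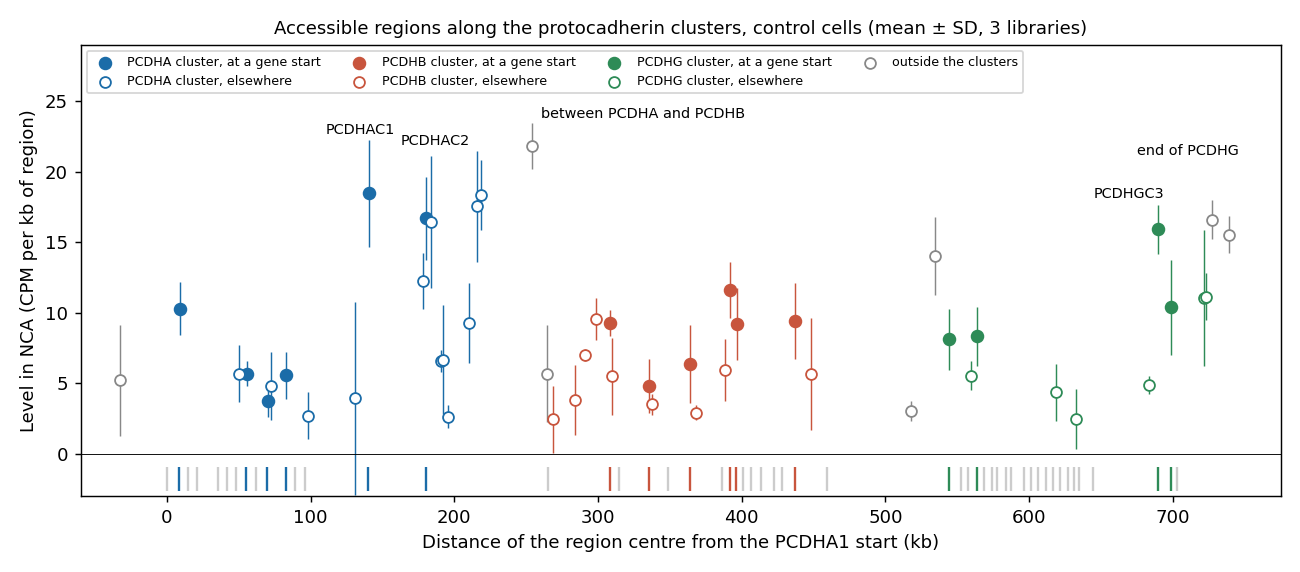
Level of each of the 50 regions in the control libraries (mean ± SD of 3 NCA libraries, CPM per kb of region) against its distance from the PCDHA1 start in kb. Filled points overlap a gene start, open points do not; ticks below the axis are the 53 starts, coloured where a region overlaps. The highest point, at 21.8, lies between PCDHA and PCDHB, and the downstream ends of PCDHA and PCDHG hold most of the other high points.

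Levels were compared per kb of region in the control cells. The highest of the 50 was chr5:141039565-141041410, between PCDHA and PCDHB, at 21.8 ± 1.64 CPM per kb (SD, n = 3), above 96.7% of all regions in the table; it was named after its value was seen. An enhancer of the PCDHA genes is known in this interval, but whether the region is that element was not determined from the files. The next were the PCDHAC1 start at 18.5 ± 3.79, chr5:141004234-141004653 at 18.3 ± 2.47 and chr5:141001340-141002583 at 17.5 ± 3.95, the last pair in the part of PCDHA past all variable exons. In PCDHG the highest was the PCDHGC3 start at 15.9 ± 1.76. The PCDHAC1 start and the pair named after it differ by less than their SDs. The highest region exceeds the PCDHAC1 start by more than its own SD of 1.64, but by less than the SD of 3.79 at PCDHAC1.

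Regions at a gene start had a median of 9.25 CPM per kb (16 regions, median width 851.5 bases), the other 34 a median of 5.69 (276.5 bases), and all regions together 5.70. PCDHA starts ran from 3.74 (PCDHA10) to 18.5 CPM per kb, PCDHB starts from 4.82 (PCDHB4) to 11.6 (PCDHB8) and PCDHG starts from 8.13 (PCDHGA1) to 15.9. A second kind of region lay within the genes: 9 weak regions were centred 1249 to 2410 bases past a start, in the stretch where the long variable exon lies, with means of 0.439 to 2.59 CPM in NCA. Of these, 7 were at 2062 to 2410 bases, past PCDHA7, PCDHA10, PCDHA13, PCDHB4, PCDHB7, PCDHGA3 and PCDHGA9. PCDHA7, PCDHA13, PCDHB7, PCDHGA3 and PCDHGA9 had no region at the start itself.

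The clusters were then compared between the oligonucleotides. PCDHA as a whole held 120.9 ± 8.34 CPM in NCA, 120.3 ± 4.27 in ASO2 and 120.3 ± 11.9 in ASO10 (SD, n = 3 each), and PCDHG held 61 ± 1.2, 62.4 ± 7.31 and 60.5 ± 0.965. For both, the groups overlapped and the means differed by less than the spread of the libraries. PCDHB held 38.5, 40.7 and 42.7 CPM in the NCA libraries, 37.3, 36.3 and 38.9 in ASO2 and 36.7, 33.8 and 33.8 in ASO10. All 3 ASO10 libraries lay below all 3 NCA libraries, at 0.855 of their mean, and ASO2 lay between, overlapping NCA. The 2 regions after PCDHG summed to 50.6, 54.9 and 56.3 CPM in NCA, 53, 61.2 and 55.6 in ASO2 and 46.7, 42 and 42.5 in ASO10. Here too the ASO10 libraries lay below all others, while ASO2 and NCA overlapped. Sums over chosen regions were given no test.

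**Figure D2:**
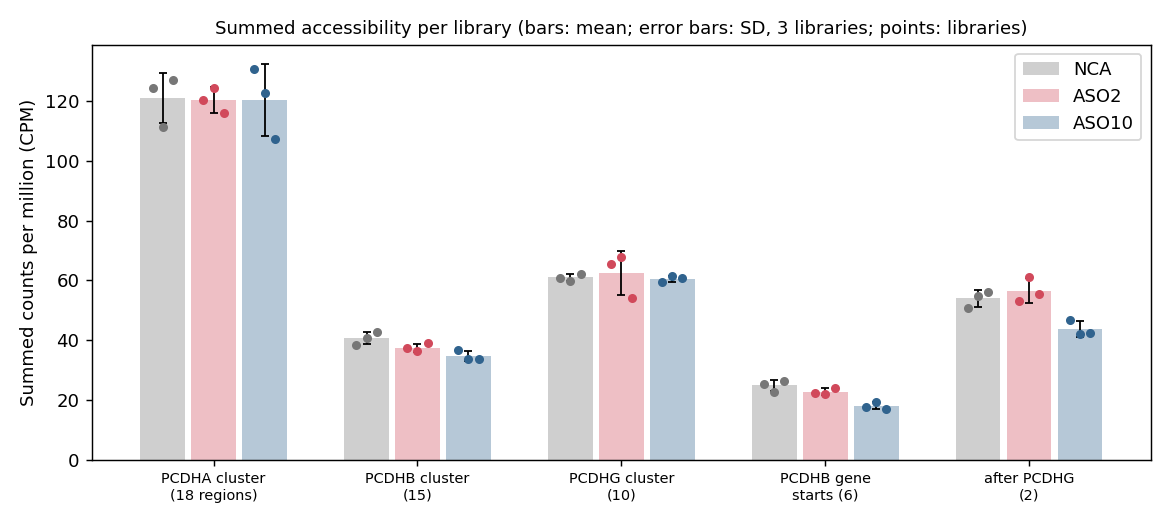
Summed CPM of each cluster, of the 6 PCDHB start regions and of the 2 regions after PCDHG in each library (points), with the group mean (bars) and SD (error bars). The ASO10 points lie below all NCA points for PCDHB, its starts and the regions after PCDHG; for PCDHA and PCDHG the groups overlap.

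For single regions edgeR's quasi-likelihood test was used, with p-values adjusted by Benjamini-Hochberg over all 119417 tested regions. Between ASO2 and NCA, 0 of the 42 tested regions passed an adjusted p of 0.05, where 5.6% of all tested regions did (4.79% higher in ASO2 and 0.808% lower). None had an unadjusted p under 0.05 (16.5% of all tested regions did), and DESeq2 called 0 as well. In simulated data for this comparison over 119417 regions, the same test called 28% of 200 regions changed by 1 on the log2 scale. It called 90.2% of the 51 among them with an average level above 3 log2 CPM, and 13 of the 42 protocadherin regions are above that level. Only those 200 regions were changed, giving 57 calls, against 6687 in the real comparison. The adjusted threshold was therefore stricter in the simulation, and these shares do not give the recovery in the real comparison. In the real data the smallest edgeR adjusted p among the 42 was 0.321. The median log2 fold change was -0.02, as it was over all tested regions (-0.02), with a range of -1.05 to 0.87. The groups did not overlap in 4 of the 42 (1 above and 3 below NCA; 9.52%, against 20.4% of all tested regions). The highest value, 0.87, was at chr5:141469299-141469478 before PCDHGC3, and the lowest, -1.05, at chr5:141077342-141077603 before PCDHB2; both regions were weak, at 0.875 ± 0.114 and 1.83 ± 0.115 CPM in NCA.

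Between ASO10 and NCA, 0 of the 42 regions were called by edgeR (1.09% of all tested regions were, 0.876% higher in ASO10 and 0.21% lower) and 0 by DESeq2. An unadjusted p under 0.05 was seen for 9, with 2 higher and 7 lower in ASO10; 10.6% of all tested regions had one. The smallest adjusted p was 0.172. The median log2 fold change was -0.05 (all tested regions -0.01), and by cluster -0.04 in PCDHA, -0.14 in PCDHB and 0.01 in PCDHG. The groups did not overlap in 6 of the 42 (1 above and 5 below; 14.3%, against 15.7%). The highest value was 0.73 at chr5:140981955-140982316, and the lowest -1.33 at chr5:141507564-141507777 near the constant exons of PCDHG, where NCA held 2.35 ± 1.02 CPM and ASO10 0.915 ± 0.531. Both comparisons use the same 3 NCA libraries.

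**Figure D3:**
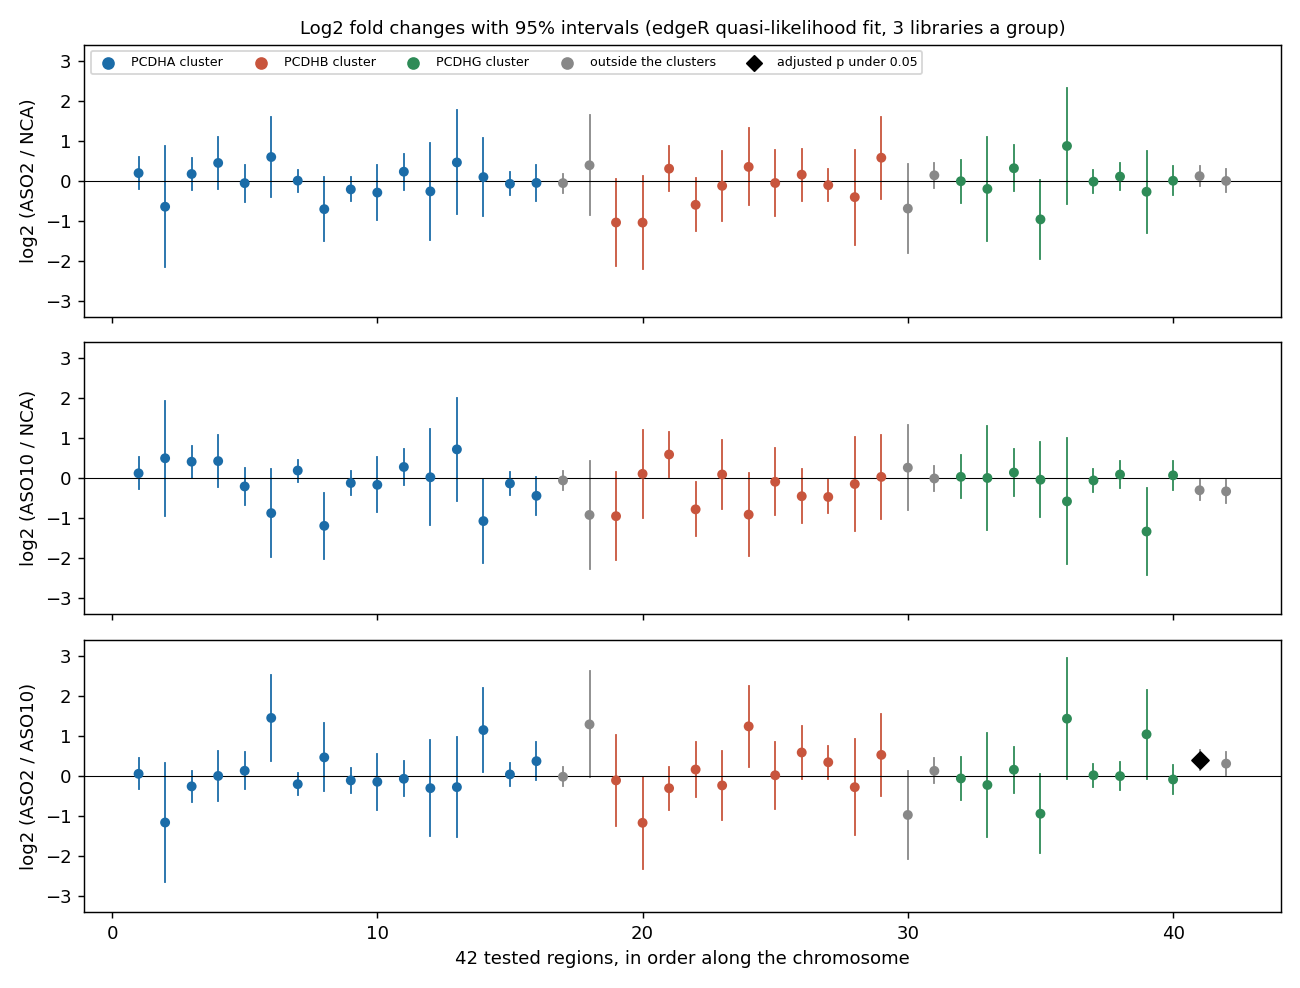
Log2 fold change (points) with its 95% interval (lines) for the 42 tested regions in order along chromosome 5, for ASO2 against NCA, ASO10 against NCA and ASO2 against ASO10 from the edgeR fit. The 1 region with an adjusted p under 0.05, a black diamond at 0.41 in the lowest panel, lies at the end of PCDHG; weak regions have the widest intervals.

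Among the C-type starts no change was called. The PCDHAC1 start, chr5:140926038-140927214, held 20.4, 18.1 and 26.7 CPM in NCA, 19.5, 24.1 and 21.6 in ASO2 and 29.9, 24.3 and 20.7 in ASO10. These groups overlap, and the 95% interval of the log2 fold change was -0.28 to 0.28 for ASO2 and -0.08 to 0.47 for ASO10. The PCDHAC2 start, chr5:140966139-140967276, held 22.6, 15.9 and 18.5 CPM in NCA, 15.1, 19.99 and 13.9 in ASO2 and 15.1, 21.9 and 15.4 in ASO10, again with overlap (intervals -0.52 to 0.08 and -0.42 to 0.19). The PCDHGC3 start, chr5:141475570-141476888, held 22.6, 18.3 and 22, 21.3, 23.1 and 17.7 and 17.2, 18.9 and 25 CPM in the same order of groups, with intervals of -0.31 to 0.26 and -0.34 to 0.24. The PCDHGC4 start, chr5:141484421-141485573, was weaker, at 8.82, 10.8 and 16.3, 14, 13.6 and 11.5 and 15.4, 13.8 and 9.43 CPM, and its groups overlapped as well. For these 4 starts the intervals exclude a log2 change of 1 or -1 under either oligonucleotide. The other open PCDHA and PCDHG starts had log2 fold changes of -0.06 (PCDHA11) to 0.44 (PCDHA10) in ASO2 and -0.20 (PCDHA11) to 0.43 (PCDHA10) in ASO10, none of them called.

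Of the starts of the 3 clusters, those of PCDHB had the lowest median in ASO10. Their log2 fold changes against NCA were -0.90 for PCDHB6, -0.77 for PCDHB2, -0.46 for PCDHB16, -0.44 for PCDHB8, -0.14 for PCDHB14 and 0.10 for PCDHB4. The median was -0.45 over these 6, where the 10500 tested regions at protein-coding starts had a median of 0.10 and 66.3% above 0. With offsets fitted to abundance the 6 had a median of -0.44 and all starts 0.02. None of the 6 was called. Their sum was 25.4, 22.7 and 26.4 CPM in NCA, 22.5, 22 and 24 in ASO2 and 17.8, 19.4 and 17.1 in ASO10, so that ASO10 lay at 0.729 of NCA without overlap. In ASO2 the median of the 6 was -0.12 and the sums overlapped NCA. The sum uses the same 6 regions whose median was the lowest of the 3 clusters. In ASO10 the starts of PCDHA summed to 1.08 and those of PCDHG to 1.02 of NCA, both with overlap. Of all single tested regions, 15.7% did not overlap between ASO10 and NCA. The PCDHB6 region was weak, with 4 to 33 counts per library.

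At the PCDHB2 start, chr5:141094561-141095079, NCA held 4.28, 5.16 and 4.98 CPM, ASO2 2.47, 3.16 and 3.76 and ASO10 3.21, 2.56 and 2.68. Both ASO groups lay below NCA without overlap, and the log2 fold changes of -0.60 ± 0.34 (SE) and -0.77 ± 0.34 had edgeR adjusted p-values of 0.366 and 0.367. By CPM per kb the PCDHB8 and PCDHB14 starts were higher than PCDHB2, and ASO10 overlapped NCA at both. The PCDHB8 start held 4.66, 3.81 and 3.32 CPM in NCA, 5.49, 3.58 and 4.11 in ASO2 and 3.44, 3.0 and 2.17 in ASO10. PCDHB14 held 2.14, 1.35 and 1.33 CPM in NCA, 0.686, 1.05 and 1.79 in ASO2 and 1.38, 1.22 and 1.78 in ASO10. At the PCDHB16 start, chr5:141182069-141183163, the strongest of the cluster by CPM but not per kb, NCA held 9.32, 7.74 and 13.2 CPM, ASO2 10.02, 10.1 and 8.14 and ASO10 7.0, 7.78 and 7.27. ASO10 overlapped the lowest NCA library and lay below all ASO2 libraries; its log2 fold change against NCA was -0.46 ± 0.21 with an edgeR adjusted p of 0.382. Before PCDHB2, chr5:141084510-141084934 went the other way, with 4.54, 4.3 and 3.32 CPM in NCA, 6.17, 4.73 and 4.2 in ASO2 and 6.54, 4.78 and 7.14 in ASO10, the latter above NCA without overlap (edgeR adjusted p 0.417).

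A weak region centred at -1827 bases from the PCDHAC2 start, chr5:140964489-140964809, had the smallest adjusted p between ASO10 and NCA and was named after its values were seen. It held 3.53, 3.56 and 4.65 CPM in NCA, 3.29, 1.26 and 2.68 in ASO2 and 1.72, 1.78 and 1.66 in ASO10. Both ASO groups lay below NCA without overlap, and the log2 fold changes were -0.71 ± 0.40 and -1.19 ± 0.42 (edgeR adjusted p 0.376 and 0.172). The PCDHAC2 start beside it did not follow this pattern, since its groups overlapped.

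The regions of high level away from gene starts follow. Between PCDHA and PCDHB, chr5:141039565-141041410 held 43.7, 39 and 38.1 CPM in NCA, 38.8, 38.5 and 38.5 in ASO2 and 42.7, 33.3 and 40.9 in ASO10. The groups overlapped, and the 95% intervals of the log2 fold change were -0.30 to 0.17 for ASO2 and -0.29 to 0.19 for ASO10. In PCDHA past the variable exons, chr5:141001340-141002583 held 27.5, 18.7 and 19.3, 18.7, 20.8 and 22.1 and 21.1, 19.9 and 18.9 CPM, with overlap. Its neighbour chr5:141004234-141004653 held 6.93, 7.25 and 8.86, 6.72, 9.15 and 6.35 and 5.05, 6.56 and 5.48 CPM; ASO10 lay below NCA without overlap, at a log2 fold change of -0.43 ± 0.24 (edgeR adjusted p 0.529).

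The side after PCDHG, toward and into DIAPH1, is known to hold enhancers of PCDHB and PCDHG genes; which of these regions match them was not determined. The region chr5:141512541-141514543, 2002 bases wide and spanning the annotated end of PCDHG, held 31.1, 32.2 and 36.3 CPM in NCA, 31.1, 40.7 and 35.8 in ASO2 and 28, 25.8 and 27.7 in ASO10. ASO10 lay below every NCA and ASO2 library, while ASO2 and NCA overlapped. Between ASO2 and ASO10 it was the 1 region called among the 42 (3.23% of all tested regions were called, 2.54% higher and 0.682% lower in ASO2), at a log2 fold change of 0.41 ± 0.13 with an edgeR adjusted p of 0.0441. Against NCA it was 0.11 ± 0.13 in ASO2 (edgeR adjusted p 0.723) and -0.30 ± 0.13 in ASO10 (0.344), neither called; abundance offsets gave a call in ASO10 (-0.43, edgeR adjusted p 0.0264), the 1 of 18 settings that did. The call between ASO2 and ASO10 lay close to the threshold. Without the ASO2 library of 40.7 CPM the log2 difference fell to 0.31 (edgeR adjusted p = 0.298). The call was also lost without either of 2 NCA libraries, 1 other ASO2 library or any ASO10 library, where the difference stayed at 0.37 to 0.43. DESeq2 (adjusted p 0.0514), no filter (edgeR adjusted p 0.0772) and the replicate block (edgeR adjusted p 0.0793) did not call it either. The call was made in 8 of 18 settings, with the same sign in all 18.

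The next region, chr5:141524647-141525981, lies within DIAPH1, an actin-nucleating formin gene that follows PCDHG. It held 19.5, 22.7 and 19.9 CPM in NCA, 21.8, 20.5 and 19.8 in ASO2 and 18.7, 16.2 and 14.8 in ASO10. ASO10 again lay below both other groups without overlap, with log2 fold changes of -0.32 ± 0.15 against NCA (edgeR adjusted p 0.406) and 0.32 for ASO2 over ASO10 (0.289), neither called. The other genes in the stretch did not show such an order. At TAF7, which codes for a subunit of the general transcription factor TFIID, NCA held 15.2 ± 2.97 CPM, ASO2 16.7 ± 1.18 and ASO10 15.3 ± 2.02, and at SLC25A2, a mitochondrial ornithine transporter gene, 1.77 ± 0.411, 1.07 ± 0.321 and 2.13 ± 1.15.

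**Figure D4:**
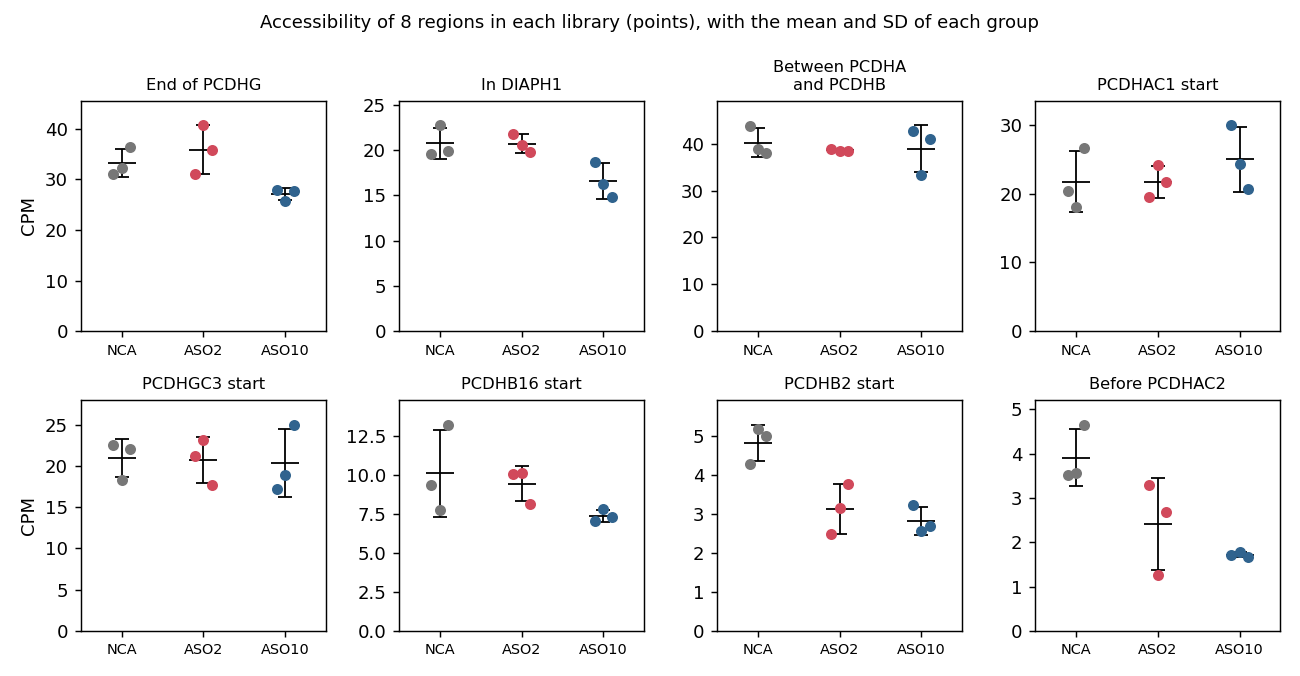
CPM of 8 regions in each of the 9 libraries (points), with the mean and SD of each group (lines); each axis starts at 0. ASO10 lies below NCA without overlap at the end of PCDHG, in DIAPH1, at the PCDHB2 start and before PCDHAC2, and overlaps NCA in the other 4. The 8 were picked partly by their values. Over the 42 tested regions ASO10 lay below NCA without overlap in 5 and above it in 1 (14.3%, against 15.7% of all tested regions).

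Compared directly, ASO2 and ASO10 did not overlap in 12 of the 42 tested regions (28.6%, against 19.3% of all tested regions), 9 with ASO2 above and 3 below. An unadjusted p under 0.05 was seen for 6 (14.6% of all tested regions), 5 higher and 1 lower in ASO2. DESeq2 called 0. The median log2 fold change was 0.02 over the 42, and 0.26 over the 6 PCDHB starts, where all protein-coding starts had -0.15. The highest, 1.46, was at chr5:140883879-140884515 past the PCDHA13 start (edgeR adjusted p 0.128), a weak region whose ASO2 libraries held 1.65, 1.37 and 4.65 CPM and whose ASO10 libraries held 1.15, 0.778 and 0.892. The lowest, -1.16, was at chr5:141077342-141077603 (edgeR adjusted p 0.337).

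Genes that act on the clusters were examined at their own starts. Of 27 regulators (CTCF, cohesin and its loader and release factors, DNA methyltransferases and TET enzymes, and repressors such as SMCHD1 and SETDB1), 26 had regions, 33 of them tested. None was called between ASO2 and NCA or between ASO10 and NCA by edgeR or DESeq2 (1 and 5 of the 33 with an unadjusted p under 0.05, where 16.5% and 10.6% of all tested regions had one). Between the oligonucleotides 2 of the 33 were called, both lower in ASO2 than in ASO10, against 3.23% of all tested regions (0.682% lower in ASO2) and 3.78% of those at protein-coding starts. At CTCF, chr16:67561801-67563584, NCA held 38.5, 38.7 and 39.6 CPM, ASO2 30.7, 41.7 and 29.5 and ASO10 48.5, 45.8 and 53.4. ASO10 lay above both other groups, and the log2 fold change of ASO2 over ASO10 was -0.53 ± 0.12 (edgeR adjusted p 0.00114), a call made in 18 of 18 settings. At STAG1, a cohesin subunit, chr3:136751388-136753142 held 66.1, 53.8 and 69.6 CPM in NCA, 59.4, 57.7 and 51.3 in ASO2 and 72.5, 75.7 and 80.3 in ASO10, a difference of -0.44 ± 0.11 between ASO2 and ASO10 (edgeR adjusted p 0.00382). That call was lost with abundance offsets (-0.24, edgeR adjusted p 0.157) and without the third ASO10 library (-0.40, 0.0738). The median of the 33 was -0.21 between ASO2 and ASO10, beside -0.15 for all protein-coding starts; with abundance offsets these were -0.13 and -0.09. The link between these starts and the protocadherin regions was not tested.

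Other protocadherins outside the clusters were not called. Of 11 non-clustered genes, 10 had a region, and edgeR and DESeq2 called 0 of 10 in each of the 3 comparisons, with 1 of 10 at an unadjusted p under 0.05 in each (16.5%, 10.6% and 14.6% of all tested regions). Their median log2 fold changes were -0.06 (ASO2 against NCA), 0.11 (ASO10 against NCA) and -0.18 (ASO2 against ASO10). These lay near the medians of all tested regions at protein-coding starts, which were -0.04, 0.10 and -0.15. The partners inside the cell, kinases and members of the WAVE actin complex, had 14 tested regions at 13 genes and edgeR called 0 in each comparison. Of the 14, 0, 5 and 2 had an unadjusted p under 0.05, beside the same 3 shares of all regions. DESeq2 called 1 of the 14, in ASO10 against NCA, where it called 1308 of all 119417 tested regions. Of the cell type markers edgeR called 1 over the 3 comparisons, at GATA2, which codes for a transcription factor of sympathetic neurons, where chr3:128487134-128489462 held 32.7 ± 3.69 CPM in ASO2 and 44.4 ± 6.28 in ASO10 (-0.44 ± 0.12, edgeR adjusted p 0.0145; called in 14 of 18 settings; 3.23% of all tested regions were called in that comparison). DESeq2 also called 1 of the 7 tested regions of mesenchymal or fibroblast markers, in ASO10 against NCA, beside the same 1308 of all 119417 tested regions. The part of the marker genes in the protocadherin values was not tested.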

How the data were processed

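The authors deposited whole-number counts for 148797 regions in 9 libraries, with no normalization, as the values show. FastQC, Bowtie2 2.2.6, SAMtools, MACS2 2.1.2, DESeq2 1.42.0 and the builds hg38 and GRCh38 are named per the submitters' processing notes; their roles, the filters, the Tn5 shift, the handling of reads that match several places, and whether reads, pairs or cut sites were counted are not given in the sources used here. The labels do not say that replicates came from separate cultures, so p-values measure the spread between these libraries, which may be technical. Replicates were not copies of each other: a chi-square test between them gave 2.74 to 3.42 for each degree of freedom.

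Regions were filtered with filterByExpr by group (119417 kept), scaled by TMM and tested with edgeR 4.0.16 (R 4.3.3; robust quasi-likelihood fit of all 9 libraries, Benjamini-Hochberg adjustment over all tested regions, threshold 0.05). A called region is one past that threshold. The common biological coefficient of variation was 23.5%. CPM use all counts with TMM factors, and per kb means per 1000 bases from region start to end. The fit was tested on simulated data (1 of its 57 calls was a region left unchanged). The members and the gene lists were chosen with earlier results of these data known. The rule for named regions took those called, the 4 highest per kb in each cluster and after PCDHG, those at gene starts, the highest and lowest fold change per comparison and those at TAF7, SLC25A2 and DIAPH1; regions outside it are said to be named after their values were seen. A gene list took regions within 1000 bases of a start.

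Gene spans and starts came from RefSeq tables (GRCh38.p14); 47 of 53 protocadherin genes were in the promoter table, and for PCDHA3, PCDHA13, PCDHB6, PCDHB11, PCDHGA12 and PCDHGC5 the gene table gave the start. A genome sequence was not used here, so motifs were read in promoters and not in regions. Alternatives were RLE factors, total counts, abundance offsets (loess, span 0.3), DESeq2, no filter, a minimum of 10 counts per library, only the 2 groups compared, a replicate block and each library left out; the CGCT searches were added after seeing the data. Replicate numbers are shared between groups, and deviations of same-numbered libraries correlated by -0.036 to 0.013 over 9 pairs, so the numbers were not taken to pair libraries. Figures were drawn with matplotlib 3.10.9 in Python 3.11.15.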

Additional observations from a re-analysis of the deposited data

Results flagged for a closer look

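The region at the end of PCDHG, chr5:141512541-141514543, differed between the 2 oligonucleotides by the direct test (log2 fold change 0.41, edgeR adjusted p 0.0441; all 3 ASO2 libraries above all 3 ASO10 libraries), while neither group was called against NCA. At the PCDHB6 start, chr5:141149929-141150252, ASO2 held 2.74, 2.1 and 2.95 CPM, all above the NCA mean, and ASO10 0.459, 1.89 and 0.892, all below it, around NCA values of 1.64, 3.07 and 1.44. The direct difference there was 1.25 on the log2 scale and was not called (edgeR adjusted p 0.198, and 0.106 to 0.556 over 17 settings); the region held 4 to 33 counts per library.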

How the results depend on the processing

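Counts, cluster sums and the fold changes of 31 protocadherin regions and 3 list regions were recomputed. This gave 1725 pairs of a result and an alternative, 1603 of them fold changes of single regions. Of the 1725, 1588 stayed the same. For fold changes this means the same direction and side of the threshold, for counts within 1.5 times, and for sums within the SD. Of the others, 95 fold changes changed sign, 16 lost a call, 1 gained a call, and 25 counts or sums moved further. Leaving out 1 library changed the calls over all regions. For ASO2 against NCA (6687 with all) they ran from 4110 to 6457, a move of over 1.5 times only without the second ASO2 library. For ASO10 against NCA (1297) they ran from 447 to 1417, by over 1.5 times without any NCA or ASO10 library. For ASO2 against ASO10 (3853) they ran from 2089 to 3981, by over 1.5 times without any ASO2 or ASO10 library. The protocadherin calls between ASO2 and ASO10 ran from 0 to 1. That last count was 0 with no filter and with DESeq2. Abundance offsets gave 1 call in ASO10 against NCA, the end of PCDHG (-0.43, edgeR adjusted p 0.0264), and left 59.3% of all calls in that comparison higher in ASO10, against 80.6%. The shorter core AGGNGGC was found in 4 promoters, not 1 (35.9% of all promoters hold it). With the replicate block, the protocadherin calls were 0 in all 3 comparisons and 6310, 983 and 3438 regions were called in all. The numbers were not taken to pair the libraries, as 0 of 9 libraries correlated best with its own number in both other groups. That does not settle whether same-numbered libraries share an origin.

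Of 96 fold changes of single regions, 41 changed sign with at least 1 library left out, giving 83 of the 95 sign changes. None was called before or after the change, and 85 of the 95 shifts were at most 1 SE. Regions are given by gene start or first base, and TAF7, SLC25A2 and DIAPH1 stand for the regions that overlap those genes. For ASO2 against NCA the 15 ranges were -0.83 to 0.084 at 141507564, -0.20 to 1.20 at 140883879, -0.12 to 0.18 at PCDHAC1, -0.24 to 0.065 at 141004234, -0.18 to 0.11 at 141001340, -0.25 to 0.17 at PCDHA11, -0.022 to 0.28 at PCDHB8, -0.59 to 0.21 at PCDHB4, -0.28 to 0.14 at PCDHB16, -0.12 to 0.078 at PCDHGC3, -0.12 to 0.071 at 141508448, -0.079 to 0.40 at PCDHGC4, -0.21 to 0.16 at PCDHGA1, -0.053 to 0.059 at DIAPH1 and -0.0051 to 0.29 at TAF7. For ASO10 against NCA the 14 ranges were -0.14 to 0.23 at 141077342, -0.23 to 0.066 at 141001340, -0.31 to 0.021 at PCDHAC2, -0.38 to 0.035 at PCDHA11, -0.31 to 0.11 at PCDHB14, -0.12 to 0.44 at PCDHB4, -0.22 to 0.060 at PCDHGC3, -0.040 to 0.15 at 141508448, -0.082 to 0.39 at PCDHGC4, -0.16 to 0.22 at PCDHGA1, -0.0090 to 0.35 at PCDHGB1, -0.26 to 0.52 at SLC25A2, -0.14 to 0.15 at TAF7 and -0.12 to 0.057 at 141039565. For ASO2 against ASO10 the 12 ranges were -0.55 to 0.31 at 140981955, -0.014 to 0.11 at 141001340, -0.28 to 0.094 at PCDHAC2, -0.13 to 0.28 at PCDHA2, -0.18 to 0.18 at PCDHA10, -0.076 to 0.32 at PCDHA11, -0.68 to 0.051 at PCDHB4, -0.083 to 0.19 at PCDHGC3, -0.17 to 0.15 at PCDHGC4, -0.19 to 0.028 at PCDHGA1, -0.070 to 0.41 at PCDHGB1 and -0.12 to 0.059 at 141039565. With no filter the reversed values were 0.0049 at PCDHAC1 (ASO2 against NCA), 0.0029 at 141508448 (ASO2 against NCA) and 0.0066 at TAF7 (ASO10 against NCA). With the replicate block the reversed values were 0.0037 at PCDHAC1 (ASO2 against NCA), 0.013 at PCDHGA1 (ASO2 against NCA) and 0.0091 at TAF7 (ASO10 against NCA). With total counts the reversed value was 0.0024 at 141039565 (ASO2 against ASO10). With abundance offsets the reversed values were -0.098 at PCDHA10 (ASO2 against ASO10), -0.0064 at PCDHGC4 (ASO2 against ASO10) and 0.15 at 141039565 (ASO2 against ASO10). With only the 2 groups compared the reversed values were -0.014 at PCDHA10 (ASO2 against ASO10) and -0.018 at PCDHGC4 (ASO2 against ASO10). The cause was not tested. The median of the 6 PCDHB starts in ASO10 stayed below 0 in the 16 alternatives that tested all 6 (-0.49 to -0.38); with a minimum of 10 counts per library 3 were tested, with a median of -0.48. In ASO2 it was 0.02 without the first NCA library. Depth limits the weak regions: 25 of the 50 had at least 10 counts in every library.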
